A study of Homo sapiens with 8 samples.

Results

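The genes described here encode readers and writers of histone acetylation and the kinase machinery that these proteins bring to RNA polymerase II. They are 9 genes, BRD3, EP300, CREBBP, MED1, CDK9, CCNT1, CCNT2, HEXIM1 and LARP7, chosen by name and by role, out of the 60659 genes counted in the series, and all 9 passed the filter on low counts in every comparison. The series measured RNA in 8 libraries of SK-N-SH, an established human neuroblastoma cell line, in 4 groups of 2 libraries, and every group had been given all-trans retinoic acid (ATRA) at 10 µM for 24 h. The KD control and the ZMYND8 knockdown groups received ATRA, and the parental and the ZMYND8 overexpression groups received ATRA and doxycycline (Dox). The overexpression cells carried a Dox-inducible, lentiviral FLAG-tagged ZMYND8 and had been selected with G418 as a stable population, whereas the parental cells had not been transduced, so that overexpression cannot be told apart from transduction and selection. The methods describe hairpin constructs for other cells but not for the SK-N-SH knockdown. The libraries of a group are named biological replicates, with no further word on their origin, and p-values measure the spread between them. The KD control libraries are titled CONTROLI and CONTROLII, whereas the libraries of every other group share a name. Whether these are different controls is not stated. The overexpression and knockdown experiments have separate controls, and what differs between the 2 experiments other than ZMYND8 cannot be told apart from the groups.

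ZMYND8 is a chromatin reader with a bromodomain. BRD3 belongs to the BET family, whose paired bromodomains bind acetylated histone tails. EP300 and CREBBP encode p300 and CBP, paralogous acetyltransferases that acetylate histone H3 at active enhancers and promoters, and MED1 is the subunit through which the Mediator complex meets nuclear receptors, those for retinoic acid among them. P-TEFb is the kinase CDK9 with cyclin T1 or cyclin T2 (CCNT1, CCNT2). It releases polymerase II from its pause near the start of genes. Much of P-TEFb is held inactive by HEXIM1 on the 7SK RNA, which LARP7 protects, and the super elongation complex brings active P-TEFb to chromatin.

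Between 38316523 and 56256979 reads were counted on genes in each library, and a member gene had from 1418 (LARP7 in an overexpression library) to 11790 counts (MED1 in a knockdown library). ZMYND8 itself went from 3089 and 3612 counts in parental cells to 220691 and 182849 with overexpression, and it had 3128 and 3374 in the KD control libraries against 1641 and 1640 in the knockdown libraries. The labels call the cells epithelial. Of 4 epithelial markers, CDH1, KRT5 and KRT14 had 3 counts or fewer in every parental, KD control and knockdown library. EPCAM had more than 3 counts in a library of every group, as did CDH1 with overexpression. The 4 summed to between 0.21 and 0.42 per library, in the length-scaled unit given below. Of the noradrenergic neuroblastoma markers, 7 of 7 tested were higher with overexpression and of the mesenchymal neuroblastoma markers 6 of 6 were lower. Their summed levels were 120 to 121 in the parental and 277 to 292 in the overexpression libraries for the noradrenergic list, and 749 to 756 and 303 to 334 for the mesenchymal list, all in the length-scaled unit given below. With knockdown 3 of 7 noradrenergic markers were lower, with sums of 163 to 183 against 204 to 214, and of 6 mesenchymal markers 2 were higher and 2 lower. Genes of these lists passed the test in both comparisons, and the part of the lists in the results below was not tested. Markers of blood, endothelium and muscle each summed to less than the level of any member gene in every library. All exon sequence of CHGA, a gene of the noradrenergic list, also occurs on alternate contigs of the reference, where reads that match several places can be lost.

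Levels of the member genes were first compared per length, as CPM per kb of summed exon length, where CPM is the count scaled to a common library size, with 1 normalization over all 8 libraries. In the parental cells HEXIM1 stood highest, at 24.6 ± 0.363 (SD, n = 2), followed by CDK9 at 22.8 ± 0.123, CCNT1 at 18.5 ± 0.447, MED1 at 17.7 ± 1.11 and BRD3 at 15.6 ± 0.256. LARP7 at 8.94 ± 0.837, EP300 at 8.39 ± 0.112, CREBBP at 7.89 ± 0.374 and CCNT2 at 5.70 ± 0.117 made up the lower part. CCNT1 and MED1 overlapped between the parental libraries, as did LARP7 and EP300, so their order is not resolved. In the KD control cells the order was different. CDK9 (25.1 ± 1.36) and CCNT1 (24.4 ± 0.118) overlapped at the top, MED1 followed at 23.5 ± 0.818, HEXIM1 at 21.6 ± 0.663 and BRD3 at 18.6 ± 0.601. CCNT2 was the lowest in every group, at 5.99 ± 0.419 in the KD control cells.

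**Figure D1:**
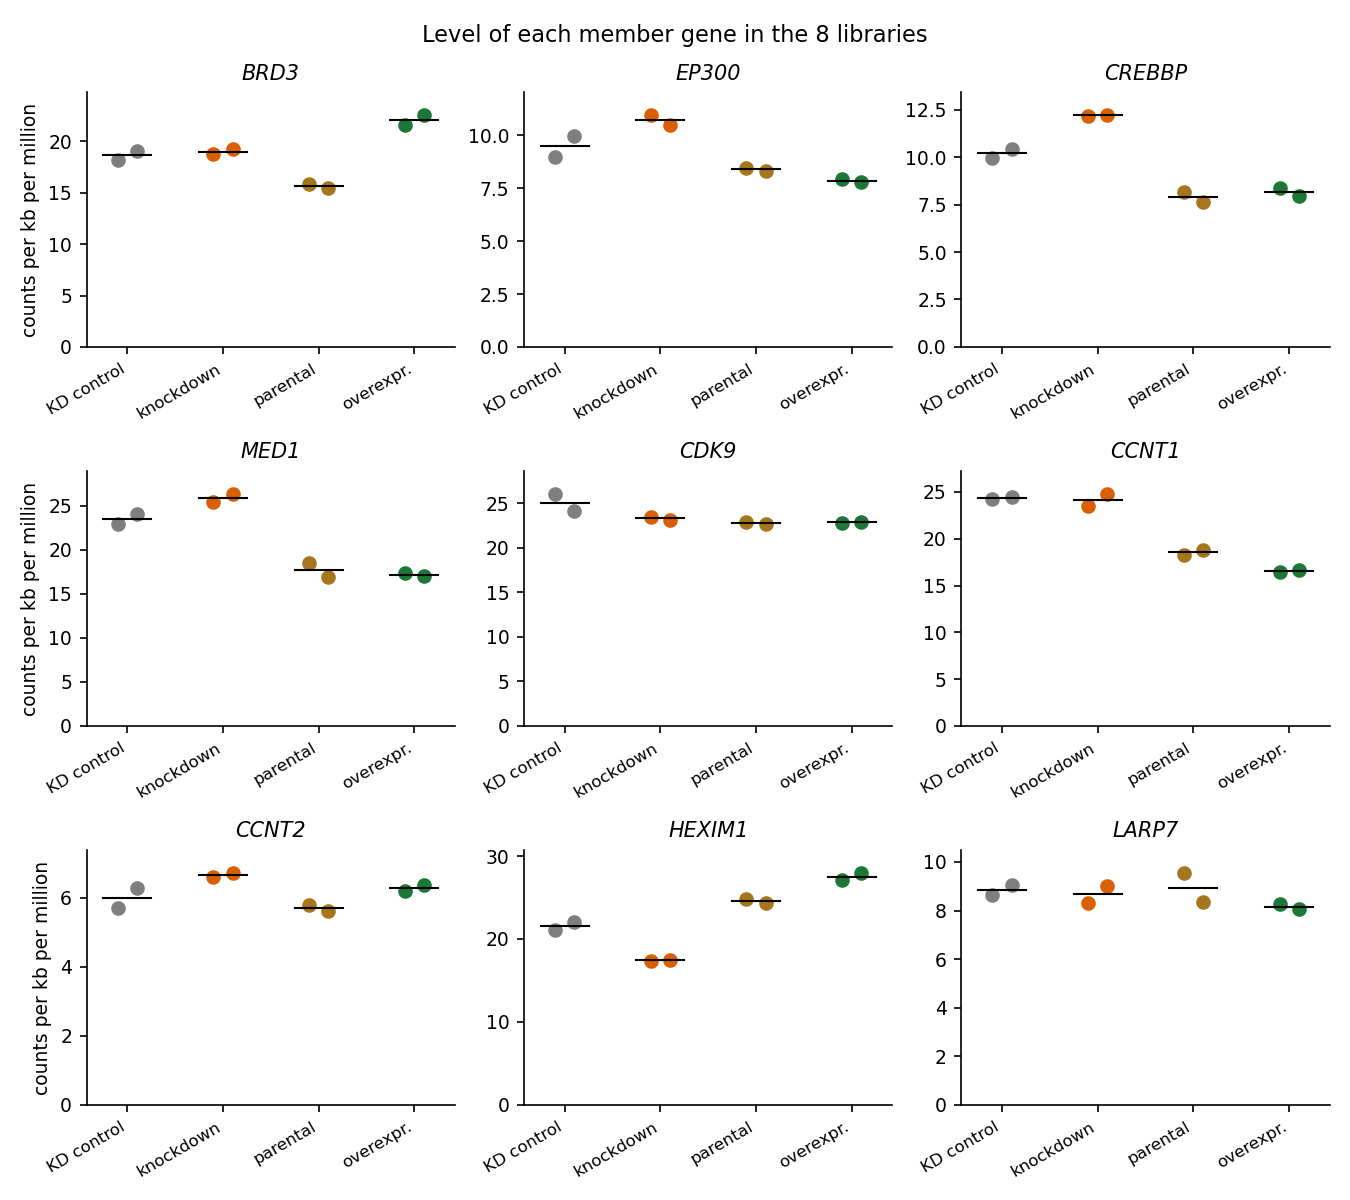
Level of each of the 9 member genes in CPM per kb (vertical axes, from 0) in the 4 groups (horizontal axes). Each point is 1 library and each bar the mean of 2. BRD3 was at 15.4 and 15.8 in the parental and at 21.6 and 22.5 in the overexpression libraries, and HEXIM1 was lowest in the knockdown libraries, at 17.4 and 17.5.

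Comparing overexpression with parental cells asks whether more ZMYND8 changes the RNA of these cofactors. BRD3, CCNT2 and HEXIM1 were higher and CCNT1 was lower, though not under every scaling, at the 0.05 threshold on adjusted p (quasi-likelihood test of edgeR, adjusted by Benjamini-Hochberg over 20835 genes). These counts, 3 higher and 1 lower of 9, stand beside 31.7% of all tested genes that were higher and 29.1% that were lower by the same rule. None of the 9 reached the stricter call, a change of 1 or more on the log2 scale in either direction and a mean count above 20, which 18.6% of all tested genes reached. At an unadjusted p below 0.05 there were again 3 higher and 1 lower, and DESeq2 called 2 higher and 1 lower with none past the stricter call. The median log2 fold change was 0.015 over the members and 0.031 over all tested genes.

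BRD3 lies at chr9:134030305-134068535 on the minus strand (GRCh38), with 15 exon blocks. In CPM it was at 109 and 106 in the parental libraries and at 149 and 155 in the overexpression libraries, without overlap. It was 1.42-fold higher, with a log2 fold change of 0.51 (SE 0.049, adjusted p = 6.30e-06, edgeR), the largest difference of any member in either comparison. Of all genes tested with overexpression, 45.5% had a larger absolute log2 fold change than BRD3. Over the 14 alternative settings, which leave out the stricter call, the value ran from 0.48 to 0.76, and every one passed the test. In the knockdown experiment BRD3 was at 125 and 131 CPM in the KD control and at 129 and 132 in the knockdown libraries, which overlap, and its log2 fold change was 0.029 (SE 0.050, adjusted p = 0.722, edgeR). The antisense gene BRD3OS covers 18.6% of the exon bases of BRD3, and the strand setting of the counting is not stated. BRD3OS did not pass the test with overexpression (log2 fold change 0.10, adjusted p = 0.141) or with knockdown (-0.00053, adjusted p = 0.997, both edgeR).

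The promoter of BRD3 is shown as the member with the largest difference, together with those of HEXIM1 and CREBBP, the members that passed the test with knockdown. Each sequence is the 250 bases before the RefSeq start of the gene on GRCh38.p14, read along the strand of the gene from 5′ to 3′. The BRD3 window is chr9:134068027-134068276 (minus strand), the HEXIM1 window chr17:45148225-45148474 (plus strand) and the CREBBP window chr16:3880714-3880963 (minus strand). For BRD3, CCNT1, CCNT2 and CDK9 the RefSeq start lies downstream of the 5′ end of the gene span printed here. Their windows therefore lie inside those spans. Capitals mark matches, on either strand, to GGGCGG (the GC box), CCAAT (the CCAAT box), TATAAA (the TATA box), TGACGTCA (the cyclic AMP response element that CREB proteins bind), its shorter part TGACG, and AGGTCA (the core of retinoic acid response elements).
BRD3: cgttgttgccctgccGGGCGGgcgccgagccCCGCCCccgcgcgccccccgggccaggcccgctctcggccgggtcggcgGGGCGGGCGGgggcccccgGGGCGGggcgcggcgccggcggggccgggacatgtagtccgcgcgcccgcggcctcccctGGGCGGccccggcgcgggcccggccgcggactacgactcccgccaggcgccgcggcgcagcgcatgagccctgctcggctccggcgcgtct
HEXIM1: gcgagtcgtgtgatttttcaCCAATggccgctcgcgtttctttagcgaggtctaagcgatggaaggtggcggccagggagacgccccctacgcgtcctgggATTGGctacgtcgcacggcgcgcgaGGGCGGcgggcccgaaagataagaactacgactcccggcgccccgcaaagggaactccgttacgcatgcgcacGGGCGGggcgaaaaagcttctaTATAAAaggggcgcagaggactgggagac
CREBBP: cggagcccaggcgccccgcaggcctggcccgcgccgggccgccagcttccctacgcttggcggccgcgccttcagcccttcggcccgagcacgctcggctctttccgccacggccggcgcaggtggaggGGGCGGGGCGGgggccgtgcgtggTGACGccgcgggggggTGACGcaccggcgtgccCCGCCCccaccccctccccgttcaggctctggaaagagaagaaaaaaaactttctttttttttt
GGGCGG was found in 7 of the 9 members' windows and in 42.6% of 35116 RefSeq promoters of the same length, and CCAAT in 5 of 9 and 32.0%. BRD3 had 6 matches to GGGCGG and none to the other motifs, and HEXIM1 had 2 matches to GGGCGG, 2 to CCAAT and 1 to TATAAA. HEXIM1 was the only member with TATAAA, which 10.7% of promoters held. CREBBP had 3 matches to GGGCGG and 2 to TGACG, a match shared with LARP7 and CCNT1 and with 21.2% of promoters. LARP7 alone held TGACGTCA, against 1.65% of promoters, and no member held AGGTCA, against 12.1%. CREBBP, LARP7 and CCNT1 each have another RefSeq start, whose window is not shown, and the member counts use the window listed first for each gene. The other window held no TGACG for CREBBP, no TGACGTCA or CCAAT for LARP7, and none of the motifs for CCNT1. A match is a description of letters in the window and not a bound site.

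Of the rest of the BET family, BRD2 had 109 to 304 counts per library, and 98.3% of its exon sequence also occurs on alternate contigs of the reference, where reads that match several places can be lost, so its level could not be read.

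HEXIM1, a gene of 1 exon at chr17:45148475-45152099 on the plus strand, differed in both experiments and in opposite directions. It was at 90.2 and 88.3 CPM in the parental libraries and at 98.1 and 101 in the overexpression libraries. With overexpression it was 12.4% higher (log2 fold change 0.17, SE 0.048, adjusted p = 0.011, edgeR). In the KD control libraries it was at 76.5 and 79.9, and in the knockdown libraries at 62.9 and 63.3. With knockdown its log2 fold change was -0.31 (SE 0.051, adjusted p = 0.0016, edgeR), which is 0.808 of the control level. The groups did not overlap in either experiment. Without parental replicate 1 the overexpression value was 0.17 (adjusted p = 0.061) and without parental replicate 2 it was 0.15 (adjusted p = 0.084), so the call was lost without either of them, while the knockdown value passed under all 14 alternatives, from -0.36 to -0.27. The opposite-strand gene HEXIM2-AS1 covers 14.3% of HEXIM1 and had 27 to 82 counts per library, and it did not pass the test in either experiment (adjusted p = 0.75 and 0.364). HEXIM2, the paralog of HEXIM1, had only 127 to 265 counts per library and did not pass either (adjusted p = 0.255 and 0.624).

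LARP7, at chr4:112637107-112657592 on the plus strand, was at 38.1 and 33.4 CPM in the parental and at 33.0 and 32.2 in the overexpression libraries, where the lower parental library lay just above both overexpression libraries. In the KD control it was at 34.4 and 36.2 and in the knockdown libraries at 33.2 and 36.0, which overlap. Its log2 fold change was -0.12 (SE 0.069, adjusted p = 0.155) with overexpression and -0.026 (SE 0.066, adjusted p = 0.821) with knockdown, and it had the largest standard errors of the 9 in both. Without parental replicate 2 the overexpression value was -0.22 (adjusted p = 0.033), which passed, and with library totals alone it was 0.13 (adjusted p = 0.118). MIR302CHG, on the opposite strand over 7.56% of its exon bases, had at most 25 counts in any library. The ratio of the LARP7 to the HEXIM1 level per length was 0.383 and 0.343 in the parental, 0.305 and 0.289 in the overexpression, 0.408 and 0.411 in the KD control and 0.479 and 0.516 in the knockdown libraries.

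CDK9, the kinase of P-TEFb (chr9:127785679-127790792, plus strand), was the most even member. It was at 68.7 and 68.2 CPM in the parental, 68.5 and 68.9 in the overexpression, 78.2 and 72.5 in the KD control and 70.7 and 69.6 in the knockdown libraries. The parental and overexpression values overlapped. Its log2 fold change was 0.015 (SE 0.048, adjusted p = 0.814) with overexpression and -0.10 (SE 0.054, adjusted p = 0.211) with knockdown, and over the 8 libraries its log2 level spanned 0.20, the narrowest span of the 9. With library totals alone it passed in both, at 0.27 (adjusted p = 4.74e-04) with overexpression and -0.16 (adjusted p = 0.049, both edgeR) with knockdown. With the length and GC correction the overexpression value was -0.11 (adjusted p = 0.065, edgeR). The microRNA genes MIR2861 and MIR3960 lie on its strand over 5.82% of its exon bases. The ratio of HEXIM1 to CDK9, per length, was 1.09 and 1.07 in parental cells and 1.19 and 1.22 with overexpression. It was 0.811 and 0.914 in the KD control and 0.738 and 0.755 in the knockdown libraries. This ratio, of the inhibitor to the kinase, ordered the groups as the HEXIM1 level did.

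The cyclins of P-TEFb differed in opposite directions with overexpression, except under library totals alone, where both values were above 0. CCNT1 (chr12:48688458-48716998, minus strand) was at 134 and 139 CPM in the parental and at 121 and 123 in the overexpression libraries. Its log2 fold change was -0.15 (SE 0.048, adjusted p = 0.018, edgeR), but it was 0.10 (adjusted p = 0.081) when scaled by library totals alone. CCNT2 (chr2:134918235-134959342, plus strand) was at 52.5 and 51.0 in the parental and at 56.1 and 57.7 in the overexpression libraries, and it was 10.7% higher (log2 fold change 0.15, SE 0.051, adjusted p = 0.028, edgeR). Neither gene overlapped between the groups. Both calls were fragile. That of CCNT1 was lost with upper quartile factors (log2 fold change -0.075, adjusted p = 0.192), with the length and GC correction (-0.022, adjusted p = 0.718), and without parental replicate 2 (-0.13, adjusted p = 0.132). That of CCNT2 was lost with DESeq2 (0.13, adjusted p = 0.173), with no filter on low counts (0.14, adjusted p = 0.066), in a fit of all 8 libraries (0.14, adjusted p = 0.052), and without parental replicate 1 (0.15, adjusted p = 0.098), parental replicate 2 (0.12, adjusted p = 0.169) or overexpression replicate 2 (0.13, adjusted p = 0.103). The ratio of CCNT1 to CCNT2 per length, which does not depend on the scaling, was 3.15 and 3.36 in the parental and 2.66 and 2.62 in the overexpression libraries. CCNT2-AS1, which lies opposite 1.63% of CCNT2's exon bases, was higher with overexpression, with 104 and 140 counts in the parental and 230 and 151 in the overexpression libraries (log2 fold change 0.59, adjusted p = 0.012, edgeR), and its part in the CCNT2 value was not tested.

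With knockdown, CCNT1 was at 179 and 180 CPM in the KD control and at 174 and 183 in the knockdown libraries, which overlap (log2 fold change -0.010, SE 0.050, adjusted p = 0.909). CCNT2 was at 51.7 and 57.1 in the KD control and at 59.8 and 60.9 in the knockdown libraries. Its log2 fold change of 0.15 (SE 0.061) did not pass the test (adjusted p = 0.101), and it was 0.074 (adjusted p = 0.534) without KD control replicate 1. The ratio of CCNT1 to CCNT2 was 4.26 and 3.89 in the KD control and 3.58 and 3.69 in the knockdown libraries. In all, CREBBP was higher and HEXIM1 was lower with knockdown, 1 of 9 each, beside 13.4% of the 19789 tested genes that were higher and 10.8% that were lower, and no member reached the stricter call, which 1.96% of all tested genes did. At an unadjusted p below 0.05 there were 4 members higher and 1 lower, and DESeq2 called 2 higher and 1 lower, none past the stricter call.

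**Figure D2:**
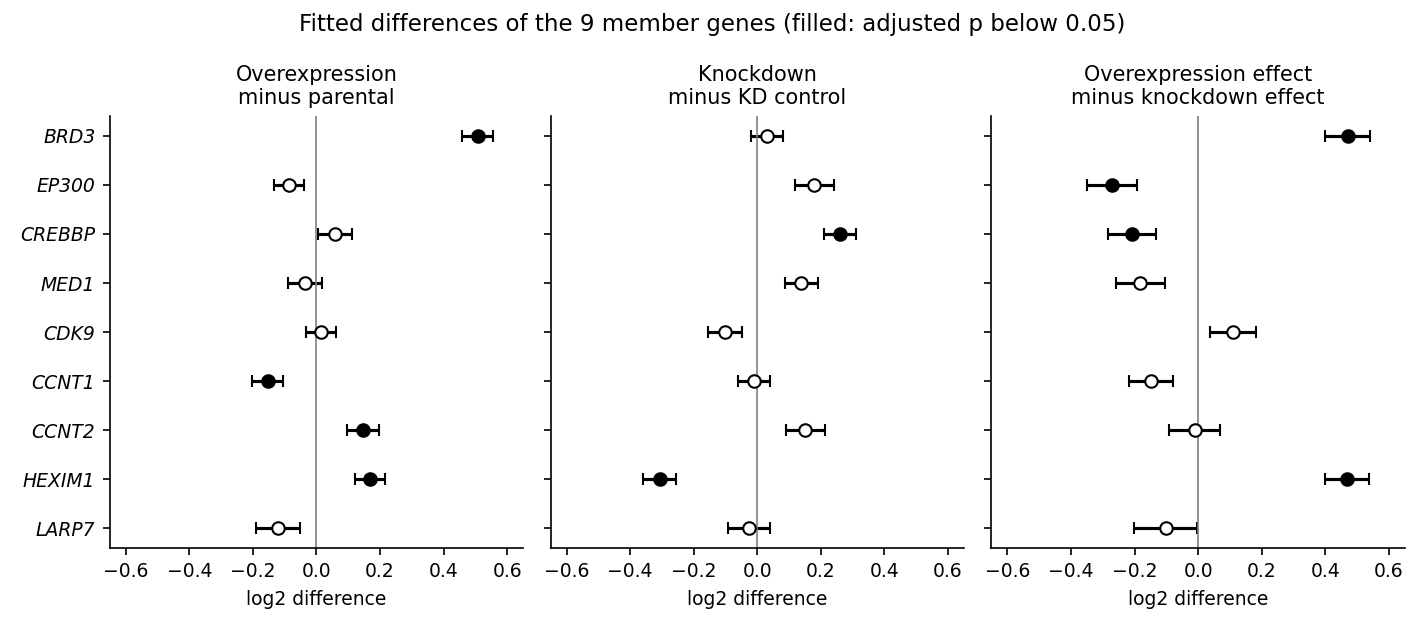
Fitted log2 differences (horizontal axes) of the 9 member genes for overexpression minus parental, knockdown minus KD control, and the difference between these effects. Bars are standard errors of the fit over 2 libraries a group, and filled points have an adjusted p below 0.05 (edgeR). BRD3 stands at 0.51, 0.029 and 0.47, and HEXIM1 at 0.17, -0.31 and 0.47.

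CREBBP (chr16:3725054-3880713, minus strand), the gene of CBP, was at 154 and 162 CPM in the KD control and at 189 and 189 in the knockdown libraries, with no overlap. It was 19.7% higher (log2 fold change 0.26, SE 0.051, adjusted p = 0.0038, edgeR), and the value passed the test under all 14 alternatives, from 0.20 to 0.30. EP300 (chr22:41092592-41180077, plus strand), its paralog, was at 105 and 117 in the KD control and at 128 and 122 in the knockdown libraries, where the groups again did not overlap. Its log2 fold change of 0.18 (SE 0.061) missed the threshold (adjusted p = 0.056, edgeR) and passed it under 6 of 14 alternatives, DESeq2 among them (0.18, adjusted p = 0.048), while it was 0.099 (adjusted p = 0.367) without KD control replicate 1. That CREBBP passed and EP300 did not is no test of a difference between them. The ratio of CREBBP to EP300 per length was 1.11 and 1.05 in the KD control and 1.11 and 1.17 in the knockdown libraries.

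With overexpression neither acetyltransferase passed the test. EP300 was at 99.1 and 97.2 CPM in the parental and at 92.7 and 91.0 in the overexpression libraries (log2 fold change -0.086, SE 0.048, adjusted p = 0.144), and it turned to 0.17 (adjusted p = 0.0084) with library totals alone. CREBBP was at 126 and 118 in the parental and at 130 and 123 in the overexpression libraries, which overlap (log2 fold change 0.059, SE 0.054, adjusted p = 0.371). It passed with upper quartile factors (0.14, adjusted p = 0.044), with the length and GC correction (0.14, adjusted p = 0.039) and with library totals alone (0.31, adjusted p = 0.00025). The ratio of CREBBP to EP300 was 0.962 and 0.917 in the parental and 1.06 and 1.02 in the overexpression libraries.

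MED1 (chr17:39404285-39451272, minus strand) was at 159 and 146 CPM in the parental and at 149 and 146 in the overexpression libraries, which overlap, with a log2 fold change of -0.036 (SE 0.054, adjusted p = 0.588). In the KD control it was at 198 and 207 and in the knockdown libraries at 219 and 226, without overlap, and the log2 fold change of 0.14 (SE 0.052) did not pass the test (adjusted p = 0.077, edgeR). MED1 had the profile over the 8 libraries closest to that of another member, CREBBP, with a root-mean-square difference of 0.059 between their centred log2 levels. The gene ENSG00000266469 lies opposite 8.76% of MED1's exon bases and had 49 to 86 counts per library.

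**Figure D3:**
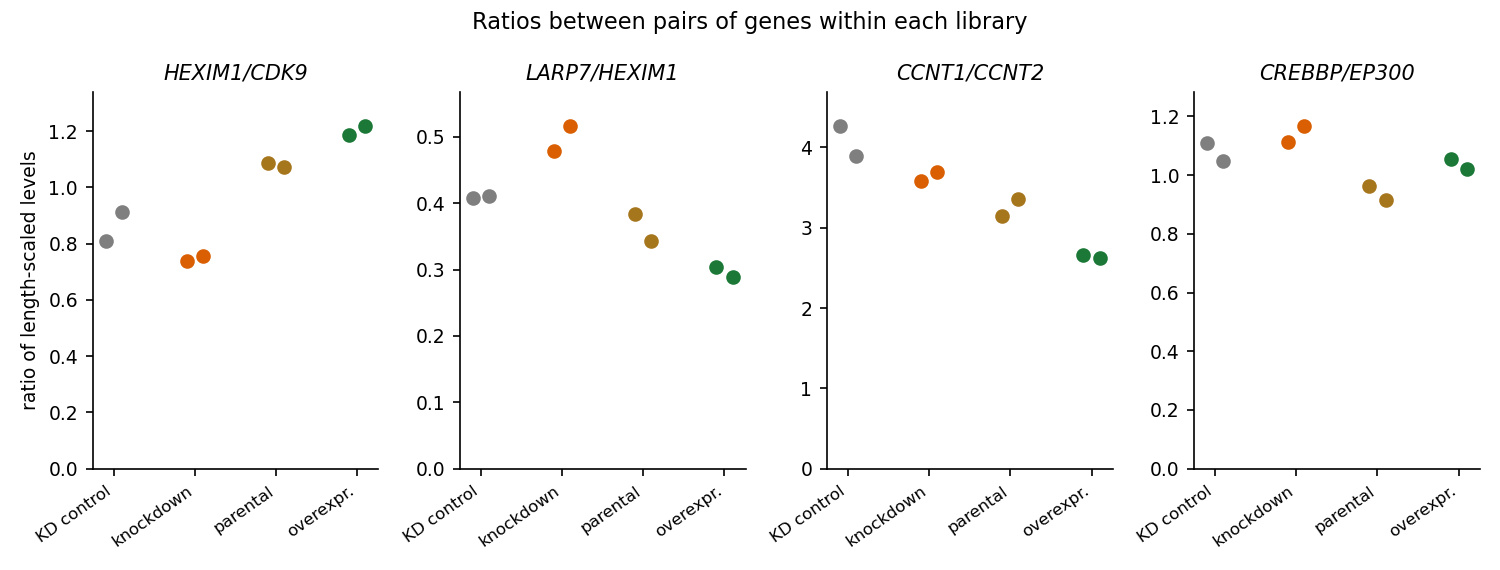
Ratios of length-scaled levels within each library (vertical axes, from 0) for 4 pairs of genes in the 4 groups (horizontal axes), 1 point per library. The ratio of HEXIM1 to CDK9 was 0.738 and 0.755 in the knockdown and 1.19 and 1.22 in the overexpression libraries, and that of CCNT1 to CCNT2 was 3.15 and 3.36 in the parental against 2.66 and 2.62 in the overexpression libraries.

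Whether overexpression and knockdown differ in their effect was tested in 1 model over all 8 libraries. For HEXIM1 the overexpression effect exceeded the knockdown effect by 0.47 on the log2 scale (SE 0.069, adjusted p = 4.75e-05), and for BRD3 also by 0.47 (SE 0.070, adjusted p = 5.23e-05). For EP300 the difference was -0.27 (SE 0.079, adjusted p = 0.010) and for CREBBP -0.21 (SE 0.075, adjusted p = 0.032, all edgeR). That is 2 members with a higher and 2 with a lower difference, beside 24.6% and 24.4% of 22619 tested genes. None of the 9 reached a difference of 1 with a mean above 20, which 18.8% of all genes did. At an unadjusted p below 0.05 there were 2 higher and 4 lower, and DESeq2 also called 2 higher and 4 lower with none past the stricter call. The differences of BRD3 and HEXIM1 passed under all 15 alternatives, with 0.39 as their lowest value. Those of EP300 and CREBBP turned to 0.047 (adjusted p = 0.663) and 0.11 (adjusted p = 0.231) with library totals alone. The difference of CREBBP also missed the threshold under 7 further alternatives, among them the removal of parental replicate 1 (-0.17, adjusted p = 0.143), overexpression replicate 2 (-0.17, adjusted p = 0.112), KD control replicate 1 (-0.18, adjusted p = 0.104), knockdown replicate 1 (-0.22, adjusted p = 0.059) or knockdown replicate 2 (-0.21, adjusted p = 0.066). That of EP300 missed it with upper quartile factors (-0.20, adjusted p = 0.062) and without KD control replicate 1 (-0.20, adjusted p = 0.052).

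MED1 (-0.18, adjusted p = 0.065), CCNT1 (-0.15, adjusted p = 0.089), CDK9 (0.11, adjusted p = 0.24), LARP7 (-0.10, adjusted p = 0.428) and CCNT2 (-0.010, adjusted p = 0.943) did not pass this test. For CCNT2 the fitted effects were 0.15 with overexpression and 0.15 with knockdown. The control groups themselves differed. CCNT1 was at 179 and 180 CPM in the KD control against 134 and 139 in the parental libraries, MED1 at 198 and 207 against 159 and 146, CREBBP at 154 and 162 against 126 and 118, and HEXIM1 at 76.5 and 79.9 against 90.2 and 88.3. BRD3 was at 125 and 131 CPM in the KD control against 109 and 106 in the parental libraries. The parental control was thus the lower one for BRD3, the member with the largest overexpression effect. Those groups differ in Dox and in experiment, so the 2 cannot be told apart and no test was made.

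**Figure D4:**
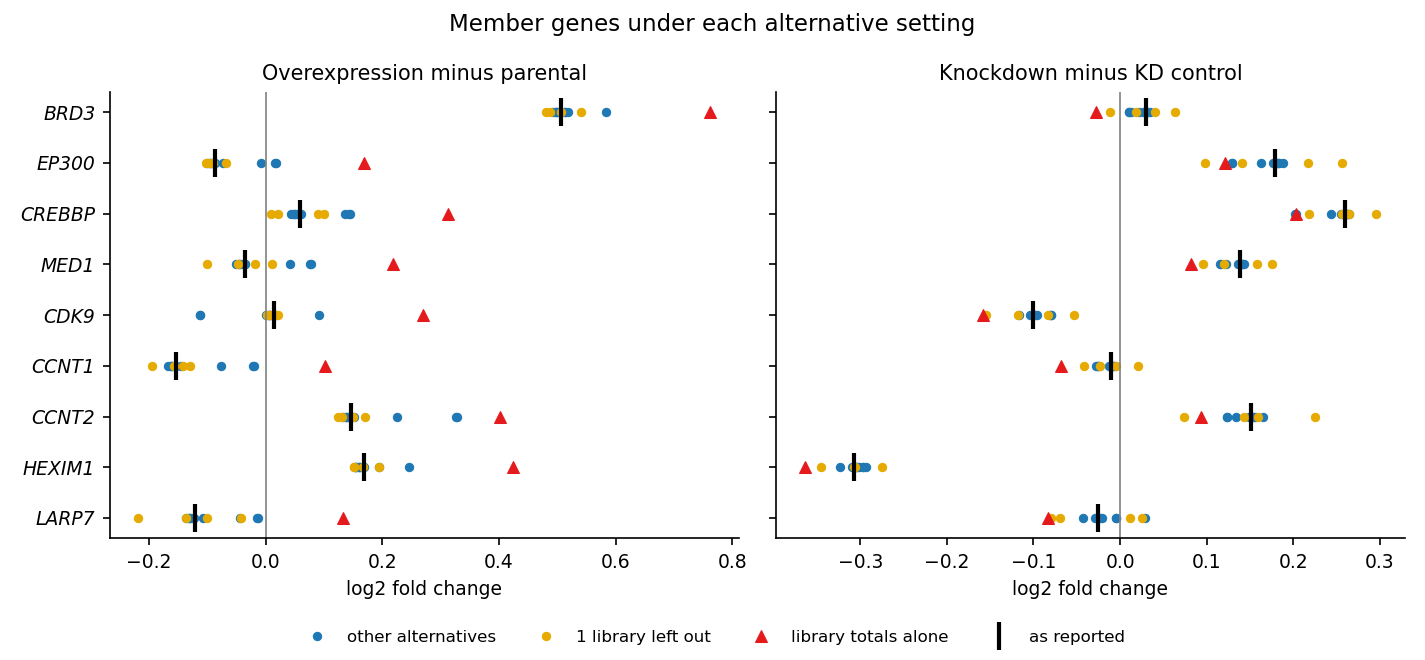
Log2 fold changes (horizontal axes) of the 9 member genes under every setting tried, with overexpression on the left and knockdown on the right. Black bars are the values reported, yellow points leave out 1 library, blue points are the other alternatives, and red triangles are scaled by library totals alone. BRD3 with overexpression (0.48 to 0.76) and HEXIM1 with knockdown (-0.36 to -0.27) lie on one side of 0 under every setting, whereas CCNT1 with overexpression reaches 0.10 with library totals alone.

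The balance of directions depended on the scaling. With library totals alone the median log2 fold change of all genes shifted by 0.255 with overexpression, -0.057 with knockdown and 0.318 for the difference, and 73.8% of the calls with overexpression were higher, against 52.2% with the trimmed mean of M values (TMM). The knockdown calls were 39.4% higher with library totals alone against 55.3%, and those of the difference 73.8% against 50.3%.

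The pathways around these genes were described with 8 lists of 157 other genes. With overexpression 45 of 155 tested list genes were higher, 49 were lower and 61 did not pass the test, where 31.7% of all tested genes were higher and 29.1% were lower. With knockdown 33 of 153 were higher, 20 were lower and 100 did not pass, where 13.4% of all tested genes were higher and 10.8% were lower. The counts of each list below stand beside the same shares of all genes. The median log2 fold change over the list genes was -0.062 with overexpression and 0.046 with knockdown, beside 0.031 and -0.0084 over all tested genes. With library totals alone 92 list genes were higher and 19 lower with overexpression, and 20 were higher and 27 lower with knockdown, so the balance of directions depended on the scaling in both.

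**Figure D5:**
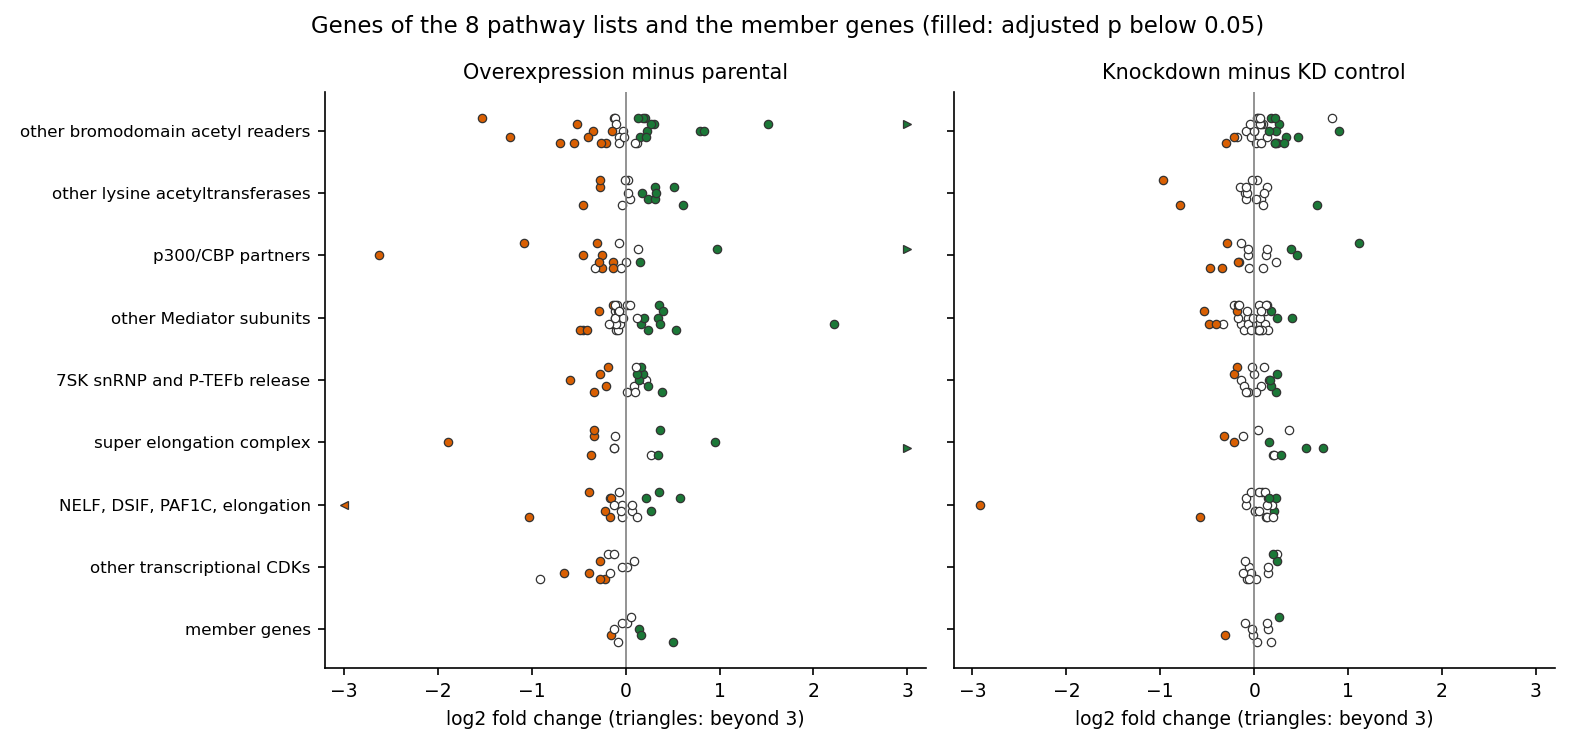
Log2 fold changes (horizontal axes) of the tested genes of 8 pathway lists and of the 9 member genes, 1 point per gene, with overexpression on the left and knockdown on the right. Filled points have an adjusted p below 0.05 (edgeR), green where higher and orange where lower, and triangles mark values beyond 3. Of 12 other transcriptional cyclin-dependent kinase genes, 5 were lower with overexpression and none was higher.

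Among 32 other bromodomain readers, 12 were higher and 11 were lower with overexpression, and 12 of 31 were higher and 2 were lower with knockdown. TRIM24, which reads acetylated histone H3, had 2121 and 2564 counts in the parental and 7724 and 6174 in the overexpression libraries (log2 fold change 1.52, SE 0.049, adjusted p = 1.53e-09), and SP100, of the nuclear bodies, had 4210 and 4910 against 1794 and 1483 (-1.52, SE 0.052, adjusted p = 2.01e-09, both edgeR). With knockdown BRWD3 rose from 4430 and 5228 to 8439 and 8993 counts (log2 fold change 0.90, SE 0.064, adjusted p = 6.49e-06). ZMYND11, a reader of histone H3.3 and a relative of ZMYND8, fell by 0.30 on the log2 scale (SE 0.053, adjusted p = 0.0020). It was lower with overexpression too (-0.40, adjusted p = 3.46e-05, edgeR). BRWD3 was also higher with overexpression (0.84, adjusted p = 1.16e-07), and the difference of its effects was -0.073 (adjusted p = 0.514).

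Of 15 other lysine acetyltransferases, 7 were higher and 3 were lower with overexpression, and 1 was higher and 2 were lower with knockdown. KAT8, which acetylates histone H4, was higher with overexpression by 0.62 (SE 0.067, adjusted p = 1.65e-05, log2). CLOCK, the circadian factor, had a log2 fold change of -0.46 with overexpression (SE 0.065, adjusted p = 1.39e-04), and was higher with knockdown by 0.67 (SE 0.054, adjusted p = 1.59e-05). NCOA3, a coactivator of nuclear receptors, had 7833 and 8515 counts in the KD control and 3911 and 4166 in the knockdown libraries (log2 fold change -0.97, SE 0.053, adjusted p = 1.47e-06). It was lower with overexpression too (-0.27, adjusted p = 6.66e-04, edgeR).

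The partners of p300 and CBP were lower for 9 of 17 and higher for 3 with overexpression, and higher for 3 and lower for 5 of 16 with knockdown. MAML2 and MAML3, coactivators of Notch that bind p300, moved apart with overexpression. MAML2 had 4948 and 5758 counts in the parental and 1051 and 755 in the overexpression libraries (log2 fold change -2.62, SE 0.068, adjusted p = 3.18e-10), whereas MAML3 was higher by 0.97 (SE 0.053, adjusted p = 7.39e-08). With knockdown CITED4, which binds p300 and CBP, was higher by 1.12 (SE 0.18, adjusted p = 0.0013), and ATF1, a relative of CREB, had a log2 fold change of -0.47 (SE 0.076, adjusted p = 0.0014, all edgeR). ATF1 was lower with overexpression too (-0.25, adjusted p = 0.0077, edgeR).

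Of 32 Mediator subunits other than MED1, 17 did not pass the test with overexpression, 9 were higher and 6 were lower, and 24 did not pass with knockdown, 3 were higher and 5 were lower. MED12L, the paralog of the kinase module subunit MED12, had 99 and 115 counts in the parental and 576 and 459 in the overexpression libraries (log2 fold change 2.22, SE 0.122, adjusted p = 8.03e-08). MED20 of the head module had a log2 fold change of -0.48 (SE 0.059, adjusted p = 4.44e-05). With knockdown MED13 of the kinase module was at 0.40 (SE 0.059, adjusted p = 7.40e-04) and MED28 at -0.53 (SE 0.050, adjusted p = 4.18e-05, all edgeR).

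Of 16 genes of the 7SK particle and of the factors that release P-TEFb from it, 6 were higher and 5 were lower with overexpression, and 4 were higher and 2 were lower with knockdown. PPM1G, a phosphatase that frees P-TEFb from 7SK, was higher with overexpression by 0.39 (SE 0.049, adjusted p = 4.87e-05). PPP3CA, the catalytic subunit of calcineurin, had 5275 and 6141 counts in the parental and 4355 and 3477 in the overexpression libraries (log2 fold change -0.59, SE 0.049, adjusted p = 2.07e-06). MEPCE, which caps 7SK, was higher by 0.14 (adjusted p = 0.037). With knockdown HNRNPA1, which binds 7SK RNA freed of P-TEFb, was at 0.24 (SE 0.057, adjusted p = 0.010) and SART3 at -0.22 (SE 0.052, adjusted p = 0.012). With overexpression HNRNPA1 was higher too (0.18, adjusted p = 0.0083), and SART3 was at 0.12 (adjusted p = 0.048, both edgeR). Each of the knockdown calls was lost without single libraries. That of HNRNPA1 was lost without KD control replicate 1 (0.21, adjusted p = 0.081) or knockdown replicate 2 (0.19, adjusted p = 0.055), and that of SART3 without KD control replicate 2 (-0.21, adjusted p = 0.077) or knockdown replicate 1 (-0.18, adjusted p = 0.069).

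In the super elongation complex, which carries active P-TEFb, 4 of 12 genes were higher and 4 were lower with overexpression, and 5 of 11 were higher and 2 were lower with knockdown. ELL2, an elongation factor of the complex, had 2362 and 2882 counts in the parental and 953 and 520 in the overexpression libraries (log2 fold change -1.89, SE 0.134, adjusted p = 5.68e-07). It had 3097 and 2853 in the KD control and 4911 and 4676 in the knockdown libraries (0.74, SE 0.065, adjusted p = 2.73e-05, both edgeR), so it moved against ZMYND8 in both experiments, where HEXIM1 moved with it. AFF2, a scaffold of the complex, had 1 and 0 counts in parental cells against 457 and 324 with overexpression. EAF1, a partner of the ELL proteins, had a log2 fold change of -0.32 with knockdown (SE 0.049, adjusted p = 8.61e-04) and of 0.36 with overexpression (adjusted p = 8.21e-05).

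Among NELF, DSIF, the PAF1 complex and other elongation factors, 4 of 19 genes were higher and 6, with NELFE among them, were lower with overexpression, and 3 of 20 were higher and 2 were lower with knockdown. CDC73, a subunit of the PAF1 complex, had 5034 and 5831 counts in the parental and 3067 and 2436 in the overexpression libraries (log2 fold change -1.03, SE 0.051, adjusted p = 3.38e-08). It was lower with knockdown too, with 7425 and 7805 against 5003 and 4896 counts (-0.57, SE 0.048, adjusted p = 1.81e-05). TCEA2 was higher with overexpression by 0.58 (SE 0.071, adjusted p = 3.96e-05) and SSRP1, a subunit of the histone chaperone FACT, higher with knockdown by 0.23 (SE 0.048, adjusted p = 0.0051, all edgeR). SSRP1 was higher with overexpression too (0.22, adjusted p = 0.0023, edgeR). NELFE lies in the major histocompatibility complex, all of its exon sequence recurs on alternate contigs, and its counts of 463 and 67 in parental cells against 15 and 22 with overexpression cannot be read as a level.

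The other cyclin-dependent kinases of transcription and their cyclins were lower for 5 of 12 genes with overexpression and higher for none in edgeR, with 7 lower and 0 higher at an unadjusted p below 0.05 and 4 lower and 0 higher in DESeq2. With library totals alone the balance of directions over all the lists turned, as given above. MNAT1, the assembly factor of the CDK7 kinase, had a log2 fold change of -0.65 (SE 0.109, adjusted p = 4.07e-04). With knockdown 2 of 12 were higher and none was lower, with 4 higher and 0 lower at an unadjusted p below 0.05 and 2 higher and 0 lower in DESeq2. CDK12, which phosphorylates the polymerase tail on long genes, was at 0.24 with knockdown (SE 0.050, adjusted p = 0.0058) and at -0.28 with overexpression (SE 0.049, adjusted p = 6.68e-04, both edgeR). Of CDK7, on the same list, 96.9% of the exon sequence also occurs on alternate contigs, so its level may not be readable.

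The gene whose profile over the 8 libraries lay closest to each member was found among 13540 others by the root-mean-square difference of centred log2 levels. For EP300 it was HERC1 (0.017), for CCNT2 TP53BP1 (0.023), for CREBBP MRPS30 (0.025), for MED1 CREB1 (0.025) and for CDK9 SEC23B (0.028). For HEXIM1 it was KCTD21-AS1 (0.028), for BRD3 ENSG00000215271 (0.031), for CCNT1 ARRDC3 (0.033) and for LARP7 HPF1 (0.043). Among the members, HEXIM1 stood furthest from the rest, since its nearest member, CDK9, was 0.273 away, whereas each of the others had a member within 0.139. All these values come from the same 8 libraries and are descriptions.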

How the data were processed

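RNA was measured in 8 libraries of rRNA-depleted total RNA. The deposited table holds raw counts of reads per gene, as whole numbers, beside the summed exon length. The authors made these counts with featureCounts (GENCODE release 28; strand setting not stated) after trimming by Trim_Galore and alignment by Hisat2 to GRCh38. By default that counter skips multi-mapping reads. Of 60662 lines, 3 of 1 split gene were left out, which left 60659 genes, and 60418 identifiers matched GENCODE release 44, used for names, overlaps and coordinates. Promoters came from RefSeq (GRCh38.p14). Totals of 38316523 to 56256979 counts limit the precision, and errors from 2 libraries a group are themselves uncertain. Replicates differed by more than counting noise in every group (chi-square per degree of freedom 5.52 to 7.97).

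Groups followed the sample titles. The quasi-likelihood test of edgeR 4.0.16 (limma 3.58.1, R 4.3.3) was run two-sided on genes kept by filterByExpr, with TMM factors, with Benjamini-Hochberg adjustment over all tested genes and calls at 0.05. The tests were checked on simulated data with a common dispersion for all genes, few of them changed. Such data differ from these, so the check does not show how often calls are wrong here. The difference of effects used all 8 libraries. Alternatives were RLE and upper quartile factors, DESeq2 1.42.0, no filter, the replicate number as a block, a length and GC correction (loess span 0.5) with and without the block, thinning to the smallest total, all 8 libraries in 1 fit, the stricter call, leaving out each library, and library totals alone. The genes named in each list had the largest increase or decrease of those that passed the test without overlap between groups, at a mean count over 100. BRD2, MEPCE, the antisense genes, and values of named genes in the other experiment were added because of their role or after their values were seen. The members and lists were chosen with earlier results of these data known.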

Additional observations from a re-analysis of the deposited data

Results flagged for a closer look

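The effects of overexpression and knockdown differed for 4 of the 9 members, by the test of the difference over all 8 libraries (edgeR, adjusted over all genes). Beside this, 24.6% of all tested genes had a higher and 24.4% a lower difference. Of 156 tested genes of the pathway lists, 34 had a higher and 53 a lower difference. The 15 list genes named below were taken from those that passed this same test, so their number is no result. The overexpression and knockdown experiments have separate controls, so what else differed between them cannot be told apart from ZMYND8. Values are the overexpression effect minus the knockdown effect on the log2 scale.

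Among the members the values were 0.47 for HEXIM1, which was 0.17 with overexpression and -0.31 with knockdown, and 0.47 for BRD3, which was 0.51 and 0.029. They were -0.27 for EP300 and -0.21 for CREBBP, where the knockdown effects were 0.18 and 0.26 and the overexpression effects -0.086 and 0.059.

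Of the bromodomain readers, TRIM24 was at 1.52 and SP100 at -1.60, each with most of the difference in the overexpression experiment. TRIM24 had 2121 and 2564 counts in the parental and 7724 and 6174 in the overexpression libraries. It had 7395 and 8739 in the KD control libraries, so the parental control was the low one. KAT2B, an acetyltransferase, was at 0.75, with -0.035 under overexpression and -0.79 under knockdown, and CLOCK was at -1.13. The coactivators MAML3 and MAML2 were at 0.84 and -2.45. MAML3 had 1243 and 1530 counts in the parental, 3043 and 2550 in the overexpression and 2497 and 2929 in the KD control libraries. In Mediator, MED12L was at 2.55 and MED20 at -0.57. Around the 7SK particle, the phosphatases PPM1A and PPP3CA were at 0.34 and -0.77. ELL2 was at -2.64. AFF2 was at 9.73, a fitted value that rests on a prior count, because it had 3 counts or fewer in each library but those with overexpression, and it is no bound. Without KD control replicate 2 it was 6.12 and no longer passed (adjusted p = 0.997). TCEA2 was at 0.62 and CDC73 at -0.47, the latter with a fall in both experiments. With library totals alone the value of CDC73 was -0.15 and did not pass (adjusted p = 0.082). CCNK, the cyclin of CDK12 and CDK13, was at -0.54. The cause of these differences was not tested.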

How the results depend on the processing

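With 2 libraries a group, spreads rest on few degrees of freedom, and a fit without 1 library assumes that the lone sample varies like the others. Library totals alone, and every alternative for the pathway list counts, were chosen after seeing the data. BRD3 with overexpression, HEXIM1 and CREBBP with knockdown, and the differences of BRD3 and HEXIM1 kept direction and call under all alternatives run but the stricter call. The stricter call left 0 members in each comparison and 3876 genes with overexpression, 388 with knockdown and 4244 for the difference. With library totals alone 7 members passed with overexpression, 3 of them among the 4 reported, list genes were 92 higher and 19 lower with overexpression, 20 higher and 27 lower with knockdown, and 83 higher and 21 lower for the difference. With no filter on low counts knockdown had 2970 genes and 13 lower list genes. Leaving out 1 library gave 2 to 4 members with overexpression (2 without either parental library), 2 to 3 with knockdown and 2 to 5 for the difference (2 without KD control replicate 1). It gave 2813 to 4603 genes with knockdown, where 2813 was the value without KD control replicate 2, and 20 to 28 higher and 10 to 18 lower list genes with knockdown, where both KD control libraries gave 20. The replicate block gave 5 members with knockdown in place of 2, with EP300, MED1 and CCNT2 added, but with the length and GC correction as well it gave 2, and these 3 were at adjusted p = 0.090, 0.0505 and 0.057. The numbers are not known to pair the samples, since deviations of same-numbered libraries correlated at 0.077 and 0.149 in 2 pairs each, and otherwise, among the members, the block changed only the call of MED1 for the difference (-0.18, adjusted p = 0.026). The median of the 36 member levels was 16.4 with RLE against 16.9 CPM per kb.

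Some log2 values of members turned sign. Of these, CCNT1 with overexpression and EP300 and CREBBP for the difference had passed the test as reported. With library totals alone, overexpression gave EP300 0.17, MED1 0.22, CCNT1 0.10 and LARP7 0.13, knockdown gave BRD3 -0.028, and the difference gave EP300 0.047, CREBBP 0.11, MED1 0.14, CCNT1 0.17, CCNT2 0.31 and LARP7 0.22. Upper quartile factors gave MED1 0.041 with overexpression and CCNT2 0.062 for the difference. The length and GC correction gave EP300 0.017, MED1 0.076 and CDK9 -0.11 with overexpression, and with the block 0.019, 0.078 and -0.11. Thinning gave LARP7 0.029 with knockdown. Without single libraries MED1 with overexpression ran from -0.10 to 0.011, with knockdown BRD3 from -0.011 to 0.063, CCNT1 from -0.041 to 0.020 and LARP7 from -0.079 to 0.026, and the difference of CCNT2 from -0.090 to 0.055. The cause was not tested.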
